A study of Mus musculus with 8 samples.

Results

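The Sprouty genes Spry1, Spry2, Spry3 and Spry4, the Spred genes Spred1, Spred2 and Spred3, and Errfi1 were examined as the feedback inhibitors that hold back signaling from receptor tyrosine kinases to RAS and ERK. They were selected by gene symbol, and all 8 were present among the 34478 genes of the deposited table. RNA had been sequenced from 4 primary cell lines of murine pancreatic ductal adenocarcinoma (PDAC), numbered #1, #3, #5 and #10, all from a mouse model that carries Ptf1awt/Cre and Trp53loxP/loxP. In such mice Cre under the Ptf1a locus acts in the pancreatic lineage, where it removes Trp53, and both treatment groups carried these alleles. Each line gave 1 library with the solvent DMSO and 1 with trametinib, an inhibitor of MEK (MEKi group), added for 48 h at the IC50 of the line, so the concentration need not be the same in all lines. The labels do not say whether each line came from a separate mouse or was a single clone, and the p-values below measure the spread between these lines.

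Sprouty and Spred proteins share a cysteine-rich C-terminal domain that brings them to the plasma membrane. Sprouty proteins are phosphorylated after receptor activation and interfere with the activation of RAS, and Sprouty2 also binds the ubiquitin ligase CBL. Spred proteins carry an EVH1 domain, through which Spred1 recruits neurofibromin, the RAS GTPase-activating protein encoded by Nf1. Errfi1 encodes MIG6, which binds the kinase domain of EGFR and other ERBB receptors and inhibits it. Several of these genes are themselves transcribed in response to ERK, which closes a negative feedback loop, and MEK inhibitors are known to open it.

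The promoters are shown first, as sequence, and no link between them and the changes with MEK inhibition was tested. Of the 8 genes, 6 had at least 1 entry in the RefSeq promoter table of GRCm38.p6, with 7 windows in all, each of 250 bases before and 50 bases after an annotated start. Errfi1 had windows at 2 starts, and Spry3 and Spry4 had none. The 100 bases just before each start are given 5′ to 3′ on the strand of the gene, with matches to searched motifs in capitals.
Spry1: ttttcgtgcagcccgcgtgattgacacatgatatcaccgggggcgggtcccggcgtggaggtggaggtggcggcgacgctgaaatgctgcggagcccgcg
Spry2: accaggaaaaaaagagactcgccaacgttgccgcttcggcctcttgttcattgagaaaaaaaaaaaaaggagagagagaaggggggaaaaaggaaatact
Spred1: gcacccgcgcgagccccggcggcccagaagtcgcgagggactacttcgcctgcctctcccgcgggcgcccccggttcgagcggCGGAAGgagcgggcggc
Spred2: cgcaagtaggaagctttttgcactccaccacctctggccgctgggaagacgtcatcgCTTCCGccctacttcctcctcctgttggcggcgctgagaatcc
Spred3: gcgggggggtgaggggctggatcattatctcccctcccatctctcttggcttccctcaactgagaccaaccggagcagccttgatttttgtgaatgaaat
Errfi1 (first start): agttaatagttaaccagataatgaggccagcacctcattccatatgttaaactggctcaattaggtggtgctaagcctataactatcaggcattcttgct
Errfi1 (second start): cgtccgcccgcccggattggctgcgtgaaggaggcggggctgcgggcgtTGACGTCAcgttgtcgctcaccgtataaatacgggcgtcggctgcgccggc

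The printed stretches lie at chr3:37639847-37639946 on the plus strand for Spry1 and at chr14:105896820-105896919 on the minus strand for Spry2. Those of Spred1 and Spred2 lie at chr2:117120971-117121070 and chr11:19924342-19924441, both on the plus strand. The printed stretch of Spred3 lies at chr7:29168648-29168747 on the minus strand. Those of Errfi1 lie at chr4:150853696-150853795 and chr4:150854970-150855069 on the plus strand. By the gene bounds of GENCODE given below, the stretch of Spred3 and the second of Errfi1 lie inside their genes. The stretch of Spred2 crosses the bound of its gene. The 5′ bound of Spred3, at 29170411, lies outside its window, so a promoter there was not searched. The 300-base windows were searched on both strands for the AP-1 site TGANTCA, the cAMP response element TGACGTCA, the ETS core CGGAAG, the EGR site GCGTGGGCG and the CArG box of SRF, none of which overlap each other in the matches found. Spred1 held 2 ETS matches, 1 of them in the printed stretch, and Spred2 held 1, on the opposite strand. The ETS core is common, at 16.9% of the 32851 windows in the table. The second start of Errfi1 held 1 cAMP response element, which 1.79% of windows hold. The windows of Spry1, Spry2, Spred3 and the first start of Errfi1 held none of these motifs, while 7.81% of all windows held the AP-1 site, 0.612% the EGR site and 1.63% the CArG box. These matches describe the sequence only and show no binding.

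The values are normalized counts, which the authors scaled so that libraries can be compared. Library totals ranged from 30680091 to 36385719 normalized counts, and the step between low values put 1 read at 0.775 to 1.24 normalized counts. A floor of 3 reads thus stood at 2.33 to 3.72, for counting error only. Ductal markers of the labelled tumor type differed widely in level. Krt8 stood at 27586.7 or more in every library. Sox9 stood at 295 to 1246 with DMSO and at 65.5 to 828 with MEKi. In the same order, Cldn7 stood at 72.1 to 963 and 11.3 to 348, and Cldn4 at 12.45 to 244 and 671 to 1461. The summed level of 11 epithelial and ductal markers was 232154 to 355182 with DMSO and 121949 to 234384 with MEKi, and 7 of the 10 tested were lower and 2 higher in limma with the line as a block, against 0 lower and 1 higher without it (at an unadjusted p under 0.05, 1 lower and 2 higher). Of all genes tested, 25.6% were lower and 27.3% higher with the block and 14.8% and 13.9% without it, so the share of higher markers here, and the 1 of 5 higher in each of the fibroblast and leukocyte lists below, are near that of genes in general. Cdh1, which encodes E-cadherin, stood at 19629.9 or more in every library, whereas Epcam was listed at 0 in every library of lines #1, #5 and #10. The 12 fibroblast markers summed to 108 to 369 with DMSO and 458 to 1263 with MEKi, with Lum at 0 throughout and Col1a1 as the 1 of 5 tested that rose. The 8 leukocyte markers summed to 1122 to 2675 and 1339 to 3807, most of it Cd14, with Ptprc at 4.05 to 17.2 and Csf1r as the 1 of 5 tested that rose, which did not pass without the block (adjusted p = 0.089 in limma). The 6 endothelial markers summed to 38.1 to 82.9 and 75.5 to 1779, the last in line #3, with 2 of 4 tested higher. These were Tek, at 1.3 to 21.5 with DMSO and 13.5 to 805 with MEKi, and Vwf, at 7.12 to 27.5 and 12.8 to 948. Both were higher in 4 of 4 lines and highest in line #3 with MEKi. Tek reached the filter only through its MEKi libraries, so its call is no independent support, which leaves Vwf as the 1 of 3 called (limma, adjusted p = 0.044, and 0.21 without the block). Vwf did not pass without line #1 or without line #3 either (limma estimates 2.15 and 1.17, adjusted p = 0.11 and 0.055). Pecam1 stood between 6.50 and 15.6 in all libraries and did not pass. In these 3 lists 0 genes were lower in limma, also at an unadjusted p under 0.05. The part of such shifts in the results below was not tested, and in bulk RNA fewer cells with a transcript and less of it per cell cannot be told apart.

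With trametinib 5 of the 8 genes fell, namely Spry4, Spry2, Errfi1, Spred1 and Spred2. Spry1, Spred3 and Spry3 did not pass the test. The test was limma on log2(value + 1), blocked by cell line, with p-values adjusted by Benjamini and Hochberg's method over the 15888 genes that averaged 10 normalized counts or more, at a threshold of 0.05. Of all those genes 25.6% were called lower and 27.3% higher. The 0 members called higher compare with 2, Spry3 and Spred3, at an unadjusted p under 0.05. Likewise the 5 called lower compare with 6 there, the added gene being Spry1. Without the block the same counts of 5 lower and 0 higher were obtained, with 1 higher at an unadjusted p under 0.05, while the background dropped to 14.8% lower and 13.9% higher. In each of the 5 genes that fell, the highest MEKi library lay below the lowest DMSO library, which held for 16.2% of all genes tested, and 15.1% were separated in the other direction. The median log2 fold change was -1.10 over the 8 genes and 0.07 over all genes tested. The log2(value + 1) scale understates changes of low transcripts. Over all genes 4341 were higher and 4075 lower, against 5333 and 3285 with libraries rescaled to equal totals, which shifted the median of all genes by 0.13 on the log2 scale, while quantile normalization shifted it by -0.10. The 5 genes that fell did so under both.

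**Figure D1:**
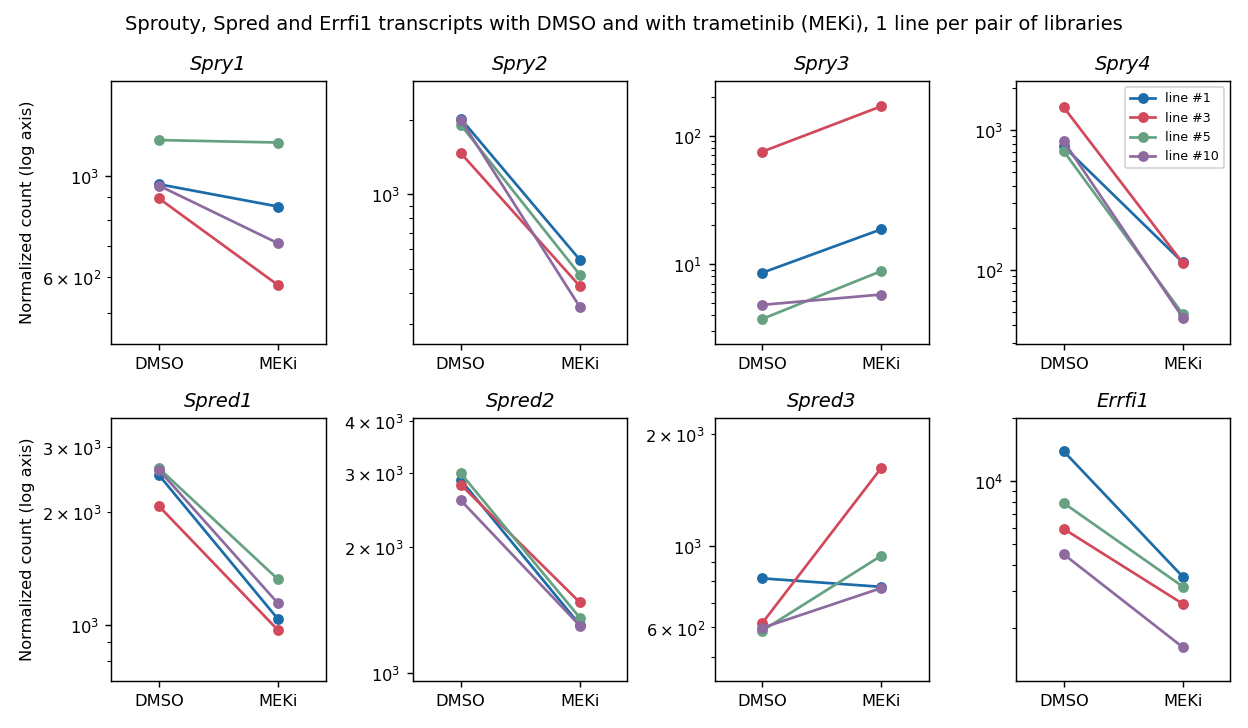
Normalized counts (log axis, a separate range in each panel) of the 8 transcripts with DMSO and MEKi, with 1 point per library and a line joining the libraries of each cell line. Spry4, Spry2, Spred1, Spred2 and Errfi1 fell in 4 of 4 lines. Spry1 was also lower in 4 of 4 lines but did not pass the test. It lay at 575 to 1185 with MEKi against 892 to 1199 with DMSO. Outside line #3, Spry3 stood at 3.72 to 18.6 normalized counts.

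Spry4, a Sprouty gene commonly used as a transcriptional readout of ERK activity, had the largest fall of the 8. Its normalized counts with DMSO were 763, 1451, 704 and 828 in lines #1, #3, #5 and #10, and with MEKi they were 113, 111, 48.0 and 45.2. Line #3 thus had the highest level with DMSO, yet lay close to line #1 with MEKi, and the groups were far apart. The level with MEKi was 8.68% ± 4.16 (SD, n = 4 lines) of that with DMSO, from 5.46% in line #10 to 14.8% in line #1. The limma estimate of the log2 fold change was -3.61 with an SE of 0.24 (adjusted p = 0.00021), rank 39 from the largest fall among all genes tested. The gene lies on chromosome 18 from 38586247 to 38601415 on the minus strand (GRCm38, GENCODE M21).

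Spry2, whose product binds CBL and GRB2, had the second largest fall. It stood at 2027, 1471.5, 1914 and 2008 with DMSO and at 544, 426, 473 and 351 with MEKi. The lines were close to each other in both groups, with a ratio of highest to lowest of 1.38 with DMSO and 1.55 with MEKi. Line #10 fell most, to 17.5% of DMSO, and line #3 least, to 28.9%. In limma the estimate was a log2 fold change of -2.05 with an SE of 0.14 (adjusted p = 0.00022), at rank 218 of the falls. Spry2 lies on chromosome 14 from 105891947 to 105896819 on the minus strand.

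Spry1, a paralog of Spry2 that also restrains FGF and other receptor signals, did not pass the test. Its values were 959, 892, 1199 and 952 with DMSO and 857, 575, 1185 and 711 with MEKi. It was lower in 4 of 4 lines, but in line #5 it kept 98.8% of the DMSO level and in line #3 64.5%, and the groups overlapped. Its log2 fold change was estimated at -0.31 with an SE of 0.13 and a 95% interval of -0.61 to -0.004 (limma, adjusted p = 0.081), so a fall beyond 0.61 lies outside this interval, which is not adjusted for the number of genes. It passed as lower with each library centred on its median (-0.37, limma, adjusted p = 0.029), whereas the estimate was smaller with equal totals (-0.18, adjusted p = 0.27) and without line #3 (-0.20, adjusted p = 0.17). Spry1 lies on chromosome 3 from 37639947 to 37644598 on the plus strand, and its exons overlap those of Gm42922 on the opposite strand, which stood at 0 to 8.68 normalized counts.

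Spry3 was the rare member of the family. It stood at 8.54, 75.0, 3.72 and 4.80 with DMSO and at 18.6, 169, 8.80 and 5.78 with MEKi. Line #3 was the highest in both groups and alone carried the gene past the filter on low values, whereas line #5 with DMSO rested on about 3 reads. The value was higher with MEKi in 4 of 4 lines (limma estimate 0.87, SE 0.33, adjusted p = 0.062). It passed as higher when libraries were rescaled to equal totals (adjusted p = 0.042 in limma) and when limma's variance prior had no trend (adjusted p = 0.020), whereas quantile normalization gave 0.40 (adjusted p = 0.35). Without line #3 the gene was below the filter and was not tested.

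Spred1, which docks neurofibromin at the membrane, fell by a similar amount in all lines. Its values were 2514, 2076, 2622 and 2593 with DMSO and 1035, 967, 1323 and 1141 with MEKi. Between 41.2% and 50.4% of the DMSO level was left, with line #3 the lowest in both groups. The estimated log2 fold change was -1.14, with an SE of 0.09 (limma, adjusted p = 0.00032). Spred1 lies on chromosome 2 from 117121374 to 117182279 on the plus strand.

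Spred2, a paralog that also inhibits RAS-ERK signaling, showed the smallest relative spread between DMSO libraries of the 8 genes. With DMSO it stood at 2889.6, 2815, 2997 and 2583, and with MEKi at 1304, 1475, 1356 and 1298. The coefficient of variation with DMSO was 6.22%, against 10.4% to 151% for the other 7. The estimated log2 fold change was -1.05, with an SE of 0.09 (limma, adjusted p = 0.00033) and 45.1% to 52.4% of the DMSO level left. The gene lies on chromosome 11 from 19924375 to 20024026 on the plus strand.

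Spred3, the paralog without a functional c-KIT-binding domain, did not pass the test in either direction. It stood at 815, 617, 588 and 598 with DMSO and at 773, 1623, 939 and 767 with MEKi. It was higher with MEKi in lines #3, #5 and #10 and slightly lower in line #1, which had the highest DMSO level, and the groups overlapped. The log2 fold changes by line were -0.076 in #1, 1.39 in #3, 0.67 in #5 and 0.36 in #10. Over all lines limma gave a log2 fold change of 0.59 with an SE of 0.23 and a 95% interval of 0.05 to 1.13 (adjusted p = 0.066). It passed as higher without line #1 (0.81, adjusted p = 0.032 in limma) and with equal totals (0.71, adjusted p = 0.035 in limma), whereas without line #3 the estimate was 0.32 (adjusted p = 0.13). Spred3 lies on chromosome 7 from 29158829 to 29170411 on the minus strand, and its exons overlap those of Ggn on the opposite strand, which stood at 23.9 to 81.0 normalized counts with an adjusted p of 0.87 in limma. The library kit keeps strand, but whether the counting used it is not given in the sources used here.

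Errfi1, the inhibitor that acts on ERBB receptors themselves, fell in all lines from levels that differed widely. It stood at 13901, 5919, 7861 and 4475 with DMSO and at 3497, 2597, 3138 and 1610.1 with MEKi. Line #1 was highest and line #10 lowest in both groups, with a ratio of highest to lowest of 3.11 with DMSO. Line #1 also fell most, to 25.2% of DMSO, while line #3 kept 43.9%. The limma estimate was -1.49 with an SE of 0.14 (adjusted p = 0.00047), at rank 540 of the falls. Errfi1 lies on chromosome 4 from 150853919 to 150868892 on the plus strand.

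The order of the changes was similar in the lines. Spry4 had the largest fall and Spry1 ranked sixth in 4 of 4 lines, while Spry2 and Errfi1 took the next places with Spry2 ahead in lines #3, #5 and #10. The fall of Spry4 exceeded that of Spry2 by 1.56 ± 0.48 (SD, n = 4 lines) on the log2 scale (two-sided exact test by flipping signs, p = 0.13, the smallest that 4 lines allow). Errfi1 and Spred1 differed by 0.36 ± 0.26, Spred2 and Spry1 by 0.75 ± 0.38, and Spry1 and Spred3 by 0.90 ± 0.81, each in the same direction in 4 of 4 lines and each at that same exact p. Spred1 and Spred2 differed by 0.08 ± 0.16 (exact p = 0.38), from -0.16 to 0.19 by line, and Spred3 and Spry3 by 0.28 ± 0.62 (exact p = 0.50). For Spry2 and Errfi1 the difference was 0.56 ± 0.48 (exact p = 0.25). Over these 7 neighbouring pairs the lowest Benjamini-Hochberg adjusted value of the exact tests was 0.219, and the design cannot reach 0.05. The pairs were taken from the order of the mean changes in these same lines. That ordering fixed the direction of each mean difference, so these values describe the order and are no independent support for it.

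**Figure D2:**
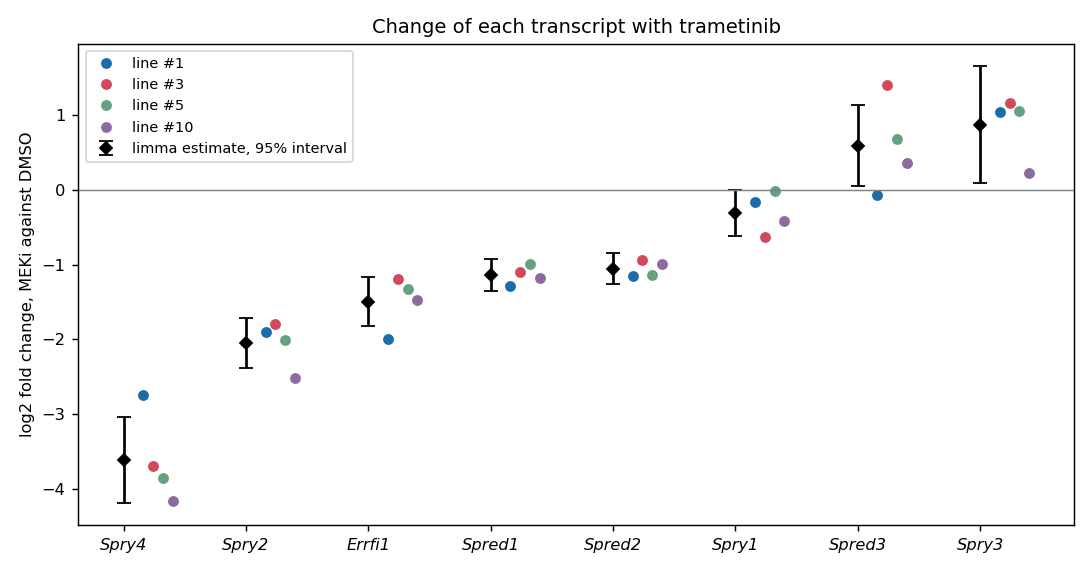
Log2 fold change, MEKi against DMSO, of each transcript, ordered by size, with the limma estimate and its 95% interval as a diamond with bars and the 4 lines as coloured points. Estimates ran from -3.61 for Spry4 to 0.87 for Spry3, and the points of Spred3 were spread from -0.076 to 1.39.

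Levels were compared between genes after division by the length of the longest coding transcript. With DMSO, Errfi1 was highest at 2642 ± 1363 normalized counts per kb (SD, n = 4 lines), followed by Spry2 at 889 ± 125, Spred2 at 634 ± 39.5, Spred1 at 407 ± 42.3, Spry1 at 361 ± 49.0, Spry4 at 197 ± 72.9, Spred3 at 161 ± 26.5 and Spry3 at 5.29 ± 7.98. Of these neighbours, the ranges of Spred1 and Spry1 and those of Spry4 and Spred3 overlapped. With MEKi the order became Errfi1 at 891 ± 270.0, Spred2 at 305 ± 18.4, Spry1 at 207 to 427, Spred3 at 253 ± 100.1, Spry2 at 215 ± 39.0, Spred1 at 186 ± 25.8, Spry4 at 16.7 ± 7.95 and Spry3 at 11.6 ± 18.2. Here the ranges of all neighbours overlapped except Errfi1 with Spred2 and Spred1 with Spry4, and Spred3 and Spry2 changed places when all exons of a gene were counted as its length. Spry2 thus went from the second to the fifth place, and Spry1 from the fifth to the third.

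The make-up of the Sprouty transcripts differed between the groups in each line. The summed level per kb of the 4 Sprouty genes was 1479, 1349, 1498 and 1481 with DMSO and 598, 474, 666 and 435 with MEKi. The sum thus fell to 37.3% ± 6.53 (SD, n = 4 lines) of the DMSO level. Spry2 made up 61.0% ± 6.16 of it with DMSO and 39.8% ± 4.46 with MEKi, and Spry4 13.8% ± 5.94 and 3.15% ± 1.58. The share of Spry1, the gene with little change of its own, was 24.8% ± 2.71 with DMSO and 54.6% ± 8.84 with MEKi, at least 43.8% in each MEKi library and at most 28.9% in each DMSO library. Spry3 reached 8.22% in line #3 with MEKi and was at most 1.28% in the other libraries. These shares follow from the changes of the single genes given above and were not tested on their own.

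The Spred transcripts shifted toward Spred3. Their summed level per kb was 1268, 1129.8, 1255 and 1159 with DMSO and 656, 892, 756 and 671 with MEKi. The sum with MEKi was 62.2% ± 11.8 (SD, n = 4 lines) of DMSO, highest at 79.0% in line #3, the line with the highest Spred3 value with MEKi. Spred2 had the largest share with DMSO at 52.8% ± 2.64, ahead of Spred1 at 33.9% ± 2.81 and Spred3 at 13.4% ± 1.81. With MEKi the shares were 41.4% ± 3.39, 25.4% ± 5.07 and 33.2% ± 7.83, and in line #3 Spred3 stood at 44.8% against 37.1% for Spred2. That order depended on the length used: with all exons counted, a choice made after the values were seen, Spred2 had 44.2% and Spred3 36.1% there, and Spred3 averaged 9.76% with DMSO and 25.9% with MEKi. These shares too were not tested on their own.

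**Figure D3:**
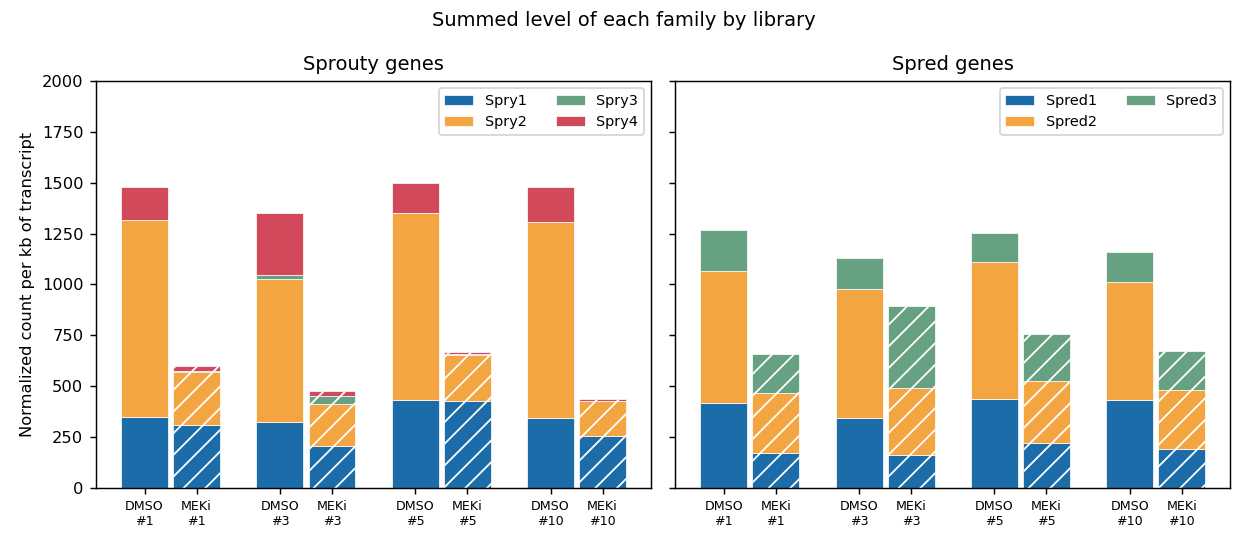
Normalized counts per kb of transcript summed over the Sprouty genes (left) and the Spred genes (right) in each of the 8 libraries, with each gene in its own colour and MEKi bars hatched. The Sprouty sums fell to 29.4% to 44.5% of DMSO and the Spred sums to 51.7% to 79.0%, and Spry1 and Spred3 took larger shares of the MEKi bars.

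The proteins through which Sprouty and Spred act had mixed and mostly small changes in RNA. Of 21 genes for partners, which include the GTPase-activating protein gene Nf1, the adaptor gene Grb2 and the ubiquitin ligase genes Cbl and Cblb, 6 were lower and 3 higher in limma, where 25.6% and 27.3% of all genes were, so the count of lower genes is near that of genes in general. Without the block 0 were lower and 1 higher, against 14.8% and 13.9% of all genes. In that fit 3 were lower and 3 higher at an unadjusted p under 0.05. The median log2 fold change of the list was -0.08. Nf1 stood at 2415, 2688, 2712 and 3063 with DMSO and at 2191, 3390.2, 2921 and 2800.3 with MEKi, so its groups overlapped (log2 fold change 0.04, adjusted p = 0.75 in limma). The fall that led the list was that of Cav1, which encodes caveolin-1, with 3352 to 6323 normalized counts with DMSO and 528 to 3918 with MEKi (log2 fold change -1.48, adjusted p = 0.0060 in limma, 0.064 without the block). Cblb, a ubiquitin ligase for activated receptors, led the rises, from 379 to 919.7 with DMSO to 914 to 1428 with MEKi (log2 fold change 0.84, adjusted p = 0.0043 in limma, 0.066 without the block).

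Other inhibitors of the same pathway were called in both directions, as were genes in general (25.6% lower and 27.3% higher). Of 19 listed, 18 were tested, and 6 were lower and 7 higher in limma, around a median log2 fold change of -0.15. Without the block 3 were lower and 6 higher, against 14.8% and 13.9% of all genes. Dusp6, the phosphatase that acts on ERK, stood at 4992, 5869, 9662 and 7519.8 with DMSO and at 638, 1094, 2231 and 1278 with MEKi. This change of -2.51 on the log2 scale (limma, SE 0.14, adjusted p = 0.00012) lay between those of Spry4 and Spry2. Dusp1, a phosphatase that also acts on the stress kinases p38 and JNK, rose from 157 to 1031 with DMSO to 2703 to 6104 with MEKi (log2 fold change 3.01, adjusted p = 0.00037 in limma).

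Transcripts known to be induced by ERK were mostly lower, as 5 of the Sprouty, Spred and Errfi1 transcripts were. Of 23 listed, 22 were tested, 18 were lower and 1 higher in limma, with a median log2 fold change of -1.13, where 25.6% and 27.3% of all genes were called. Without the block 14 were lower and 0 higher (0 also at an unadjusted p under 0.05), against 14.8% and 13.9% of all genes. Egr3 reached the filter only through its DMSO libraries, and 17 of the 21 other genes tested were lower. Etv4, an ETS factor gene, fell from 2106 to 2997 normalized counts with DMSO to 16.5 to 80.0 with MEKi (log2 fold change -5.92, adjusted p = 0.00020 in limma). The rise was that of Junb, at 2180 to 6953 with DMSO and 2234 to 8709 with MEKi, which overlapped (log2 fold change 0.41, adjusted p = 0.029 in limma) and did not pass in 6 of 14 alternatives. These included the fits without line #1 (0.43), without line #5 (0.36) and without line #10 (0.30).

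Of the receptors that Errfi1 restrains, Egfr was higher with MEKi in 4 of 4 lines. It stood at 758, 597, 2076 and 1121 with DMSO and at 1559, 1052, 4672 and 2682 with MEKi. Each line rose within its own pair although the groups overlapped, and the log2 fold change was 1.07 (adjusted p = 0.00053 in limma, 0.15 without the block). Erbb2 and Erbb3 did not pass the test and Erbb4 was below the filter, so 1 of 3 tested was higher, near the 27.3% of all genes, and 0 lower, also at an unadjusted p under 0.05. Without the block 0 of the 3 passed in either direction, also at an unadjusted p under 0.05. Of all genes 14.8% were called lower and 13.9% higher in that fit.

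Of 15 other receptors whose signal Sprouty and Spred proteins dampen, 12 were tested, 2 were lower and 5 higher in limma, against 25.6% and 27.3% of all genes, with a median log2 fold change of 0.64. Without the block 0 were lower, also at an unadjusted p under 0.05, and 3 were higher, against 14.8% and 13.9%. Fgfr1 stood at 76.7, 12.2, 32.8 and 46.1 with DMSO and at 113, 60.4, 42.0 and 56.3 with MEKi (log2 fold change 0.85, adjusted p = 0.098 in limma). The estimate was 0.39 without line #3 and 0.38 with quantile normalization (adjusted p = 0.21 and 0.40). Fgfr3 led the rises, from 47.6 to 915 with DMSO to 1185 to 6096 with MEKi, a log2 fold change of 3.86 (limma, adjusted p = 0.00027). Ret, a low transcript at 27.9 to 109.8 with DMSO and 5.84 to 74.0 with MEKi, led the falls (log2 fold change -1.25, adjusted p = 0.033 in limma). It did not pass in 5 of 14 alternatives, among them those without line #1 (-1.38), line #5 (-1.48) and line #10 (-1.35), and without line #3 the estimate was -0.79. A further list of 12 measured SRF and YAP target genes had 11 higher and 0 lower, also at an unadjusted p under 0.05, with a median log2 fold change of 2.46, and 10 higher and 0 lower without the block, where 27.3% and 13.9% of all genes were higher. Cnn1, a gene of smooth muscle, led it, from 1.21 to 3.93 with DMSO, close to the floor of 3 reads, to 256 to 1977 with MEKi. Cnn1 and Myl9 reached the filter only through their MEKi libraries and so had to differ, and 9 of the 10 other genes tested were higher. Like the other lists, this list was chosen with earlier results of these data known, so its counts are no independent support.

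**Figure D4:**
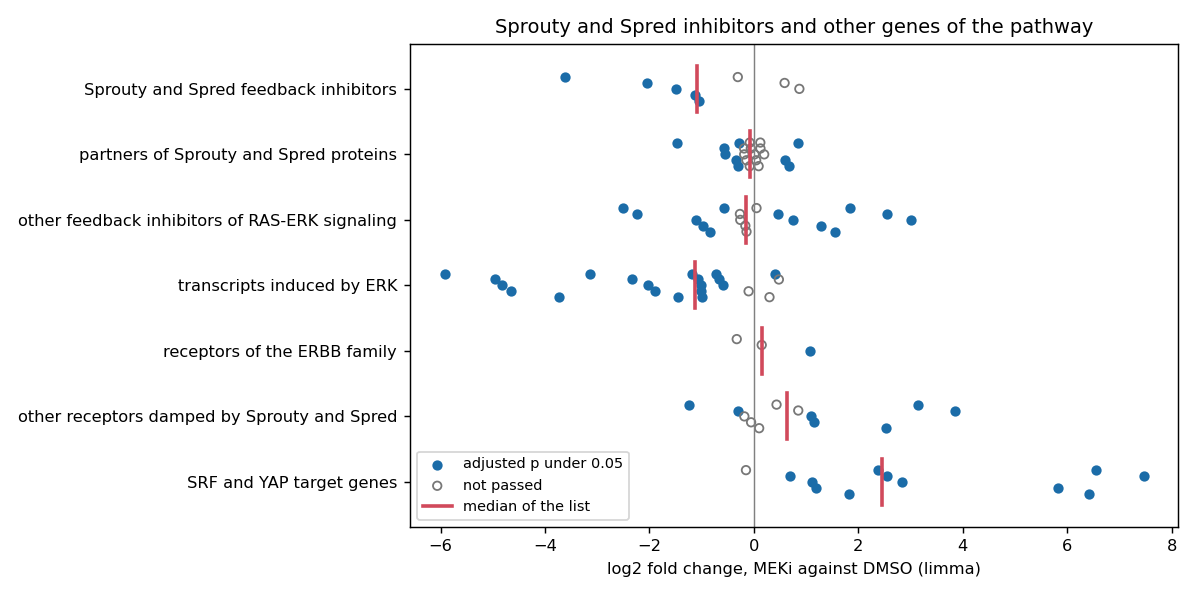
Log2 fold change, MEKi against DMSO, of each gene tested in 7 lists, with filled points for an adjusted p under 0.05 in limma, open points for the rest and a red bar at the median of the list. The medians were -1.10 for the Sprouty and Spred inhibitors with Errfi1, -1.13 for transcripts induced by ERK and -0.08 for partners, while the SRF and YAP targets lay at 2.46.

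Genes with the most similar pattern to each transcript were found by Pearson's r of log2(value + 1) over the 8 libraries, which the treatment and the line both shape. They were Phlda2 and Orc6 for Spry2 (r = 0.99 for both), Itga6 and St3gal6 for Spry4 (0.99 for both), Acan and Gm15910 for Spred1 (0.99 for both), 1700016G22Rik and Ppif for Spred2 (0.995 and 0.99), and Atp1b3 and Cox7b for Errfi1 (0.98 for both). All 10 were lower with MEKi, as the transcripts they resemble. Spry1 was most similar to Aebp2 and Mthfd2 (0.98 for both), which like it were highest in line #5 in both groups. Spry3 was most similar to Slc6a15 and 2200002J24Rik (0.97 for both), which share its high level in line #3, with Slc6a15 at 910.4 with DMSO and 6888 with MEKi there. Spred3 was most similar to AC161250.2 (0.98) and Gm37158 (0.97), both of which were highest in line #3 with MEKi. These values describe 8 libraries of 4 lines and were not tested.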

How the data were processed

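RNA was sequenced from 4 murine PDAC lines with DMSO or trametinib, 8 libraries in all, from stranded polyA libraries. The authors deposited normalized counts, a signal of estimated reads per gene divided by a scaling factor, and the submitters' processing notes list CASAVA 2.17, Salmon 0.12, DESeq2 1.18 and mm10 without their roles. Whole reads could not be recovered, so no count test was run. The step between low values put the depth at about 29300000 to 46000000 reads per library.

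Members and lists were chosen with earlier results of these data known. Values were tested as log2(value + 1) by lmFit and eBayes with trend (limma 3.58.1, R 4.3.3), a filter at a mean of 10 and the cell line as a block, since both libraries of a number come from the same line. Deviations of such libraries from the group means correlated at 0.66 on average (0.63 to 0.72) across genes. The fit was tested on simulated data. Tables and plots used Python 3.11.15, pandas 2.3.3, numpy 2.4.6, scipy 1.17.1 and matplotlib 3.10.9. Positions and lengths are from GENCODE M21 on GRCm38, matched by symbol. Spry3 is given no position, and 1 further allele of the mouse model is not reported here. Promoters are from RefSeq.

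Named are all 8 members, the largest called rise and fall of each pathway list, Dusp6, Nf1, Egfr and Fgfr1 whatever their values, and for each member the 2 genes with the highest correlation. Markers, Myl9, Egr3, Erbb2, Erbb3, Erbb4, Ggn and Gm42922 were named outside this rule. Ccn1 and Ccn2 were listed also under older symbols, which the table uses, and Adgre1 was not analysed here. The alternatives were pseudocounts of 0.1 and 5, equal totals, quantile normalization, median centring, no filter, a filter at 50, no block, eBayes without trend or with robust estimation, and leaving out each line.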

Additional observations from a re-analysis of the deposited data

Results flagged for a closer look

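Of 24 groups of 4 values examined for the 8 genes (DMSO levels, MEKi levels and log2 fold changes by line), 5 had 1 value far from the other 3. An assumed rate of 1 in 20 would give about 1.2. The fold changes are built from the levels, so the groups are not independent and this is no test of an excess. Spry3 in line #3 stood apart with DMSO at 75.0 normalized counts and with MEKi at 169, and its log2 fold change in line #10 was lower than in the other lines, at 0.22, on about 5 and 6 reads. Spry4 with DMSO was highest in line #3 at 1451 normalized counts, and Spred3 with DMSO was highest in line #1 at 815 normalized counts. The log2 fold change of Spred3 differed in direction between lines, at -0.076 in line #1 against 1.39 in line #3, 0.67 in line #5 and 0.36 in line #10. With 1 library per line and treatment this difference was not tested.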

How the results depend on the processing

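Spry4, Spry2, Errfi1, Spred1 and Spred2 were lower and past the threshold in limma in all 14 alternatives. Rescaling to equal totals brought Spred3 (0.71) and Spry3 (0.98) past the threshold, so that 2 of the 8 genes were higher, and limma without trend brought 1 past it, Spry3 (0.87). Centring on the median brought Spry1 (-0.37) past it and turned Nf1 to -0.016, which was never past it. Leaving out 1 line gave 0.32 (without line #3) to 0.81 (without line #1) for Spred3, 0 to 1 of the 8 genes higher, and -0.054 to 0.10 for Nf1. The causes were not tested. The fit without the replicate block kept 5 lower and 0 higher among the 8 genes, but 2205 of all genes were higher and 2347 lower, and Egfr, Cav1, Cblb, Junb and Ret no longer passed. Spry3 could not be tested without line #3 or with a filter at 50. Depth limits Spry3 outside line #3.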
